A study of Rattus norvegicus with 18 samples.

Results

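The voltage-gated Kv potassium channel genes of the rat were followed in dorsal hippocampus during a chronic ethanol diet and 24 h into withdrawal from it. Members were the genes named Kcna, Kcnb, Kcnc, Kcnd, Kcnf, Kcng, Kcnh, Kcnq, Kcns or Kcnv plus a number, with at least 10 counts summed over all libraries. Of 38445 genes in the count files, 40 carried such a symbol and 39 met the rule. Kcna10, with 2 counts in all, was left out. The 35 members described are given below. A level above 0.5 CPM (counts of a library scaled to a common total) in at least 1 rat was reached by 34 of these 35, which were tested among 17853 genes. Kcna7 did not reach it.

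The 18 libraries came from adult male Sprague Dawley rats, 75 to 85 days old at purchase, with 6 rats in each group. The control group took a nutritionally complete liquid diet without ethanol. The ethanol group took the same kind of diet with 9% ethanol for 16 days and was killed while still on it. The withdrawal group took it for 15 days and was then switched to control diet for 24 h. Before those days, both groups had been brought onto ethanol gradually at lower concentrations. All rats were pair fed, and the diet was their only food and fluid.

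Kv channels are tetramers that open when the membrane depolarises and let potassium out, which shortens the action potential and sets how soon a neuron can fire again. The Kv1, Kv2, Kv3, Kv4 and Kv7 subunits and the Kcnh (ether-a-go-go) subunits form channels of their own kind. The Kcnf, Kcng, Kcns and Kcnv subunits are electrically silent alone and join Kv2 subunits to change how those channels open. In the hippocampus, Kv4 channels carry the dendritic A-type current and Kv7 channels the M-current, a slow brake on repeated firing.

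Library size was 30873228 to 42679748 counts per rat, with a median of 36302755. The libraries were not uniform in tissue makeup. Withdrawal rats 1 and 5 had the lowest summed level of the dentate granule cell markers Prox1, C1ql2 and Dsp (119 and 77.7 CPM, against 153 to 203 in the other rats), and rat 5 also had the lowest sum of pyramidal markers (995 CPM). Ethanol rats 1 and 4 and control rat 6 had the highest sums of 6 thalamic markers (1408, 805 and 735 CPM, with the others at 179 to 555). Choroid plexus markers summed to 25.8 and 27.2 CPM in withdrawal rats 4 and 5 and to 1025 to 5057 CPM in the rest. The pyramidal, granule cell and inhibitory neuron markers of hippocampus were all detected, but Fibcd1 of CA1 and Iyd of CA3 did not pass the filter. The libraries also fell into 3 sets by first index sequence. One set held every control rat, another every ethanol rat with withdrawal rats 1 and 2, and the last withdrawal rats 3 to 6. Index set and treatment therefore cannot be told apart in comparisons with control. In tissue RNA of this kind, fewer cells of a type and less RNA per cell cannot be told apart either.

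In withdrawal against control, 1 of the 34 tested Kv genes (2.94%) passed the test, Kcnh4, which was higher, against 5.41% of all genes. In withdrawal against ethanol 1 (2.94%) passed, Kcng4, which was lower, against 2.72% of all genes. In ethanol against control 0 passed, against 0.493% of all genes, but Kcnq3 was below the control range in every ethanol rat. Such a separation of those groups was seen in 1 of the 34 (2.94%) and in 1.32% of all genes. The test was limma-voom over all genes with 3 surrogate variables (fitted terms for variation that treatment does not account for), called at a Benjamini-Hochberg adjusted p (q) below 0.1.

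Levels per length were compared first. They are given as FPKM, the CPM divided by the exonic length in kilobases that the files list, as the mean over 18 rats. Of the 35 genes described, 8 stood at 20 FPKM or more and 6 under 1 FPKM. Kcnd2 of the Kv4 genes and Kcna1 of the Kv1 genes were the highest of them.

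**Figure D1:**
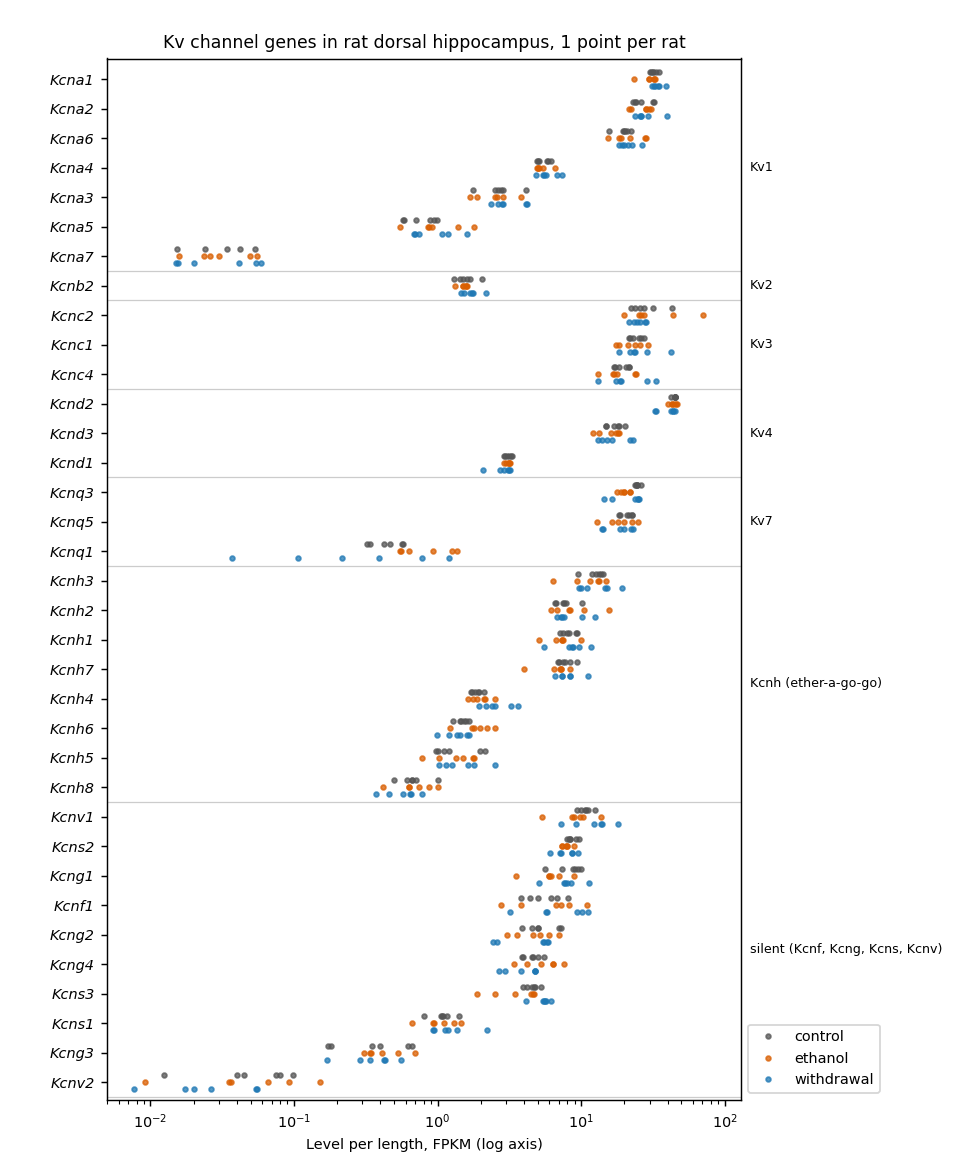
Level per length (FPKM, log axis) of the 35 Kv genes described, 1 point per rat, coloured by group and ordered by subfamily and level; rats with 0 counts of Kcna7 are not drawn. Kcnd2 stands highest of these at a mean of 42.8 FPKM, Kcna7 and Kcnv2 lie lowest, and the 3 groups overlap for nearly every gene.

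Among the Kv1 genes, which make low-threshold channels of axons and terminals, Kcna1 had 32.1 FPKM, Kcna2 27.3 and Kcna6 20.9. Kcna4, which forms an inactivating axonal channel, had 5.58 FPKM. Kcna3 had 2.84, Kcna5 0.947 and Kcna7 0.0319 FPKM, the last with 0 to 9 counts per library. The gene models of Kcna1, Kcna3 and Kcna5 were single exons of 1746, 1578 and 1809 bases, much shorter than the 12678 bases of Kcna2. The order of Kcna1 and Kcna2 rested on that: in CPM, Kcna2 lay at 275 to 500 and Kcna1 at 40.7 to 68.1. Kcnb2, a subunit of the Kv2 delayed rectifier, had 1.61 FPKM.

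Kv3 subunits make fast channels that let neurons fire at high rates. Kcnc2 had 29.9 FPKM, Kcnc1 24.4 and Kcnc4 20.03. Of the Kv4 genes, Kcnd2 had 42.8 FPKM, Kcnd3 16.8 and Kcnd1 3.01. In the files, 550 of the exonic bases of Kcnd2 (13.7%) also lay in another gene of the same strand, so its count may be incomplete or shared. Kcnq3, an M-channel subunit of forebrain neurons, had 22.2 FPKM and Kcnq5, another M-channel subunit, 19.6. Kcnq1, best known from heart and epithelia, had 0.595 FPKM.

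The 8 Kcnh genes encode the ether-a-go-go family. Kcnh3 had 12.4 FPKM and Kcnh4, a relative of the same Kv12 branch, 2.18. Kcnh2, the Erg channel that repolarises the heart, had 8.54 FPKM and its relatives Kcnh7 and Kcnh6 had 7.59 and 1.59. Kcnh1 stood at 8.12 FPKM, Kcnh5 at 1.44 and Kcnh8 at 0.663. The silent subunits were led by Kcnv1 at 10.9 FPKM. Kcns2 had 8.13, Kcng1 7.56, Kcnf1 6.64, Kcng2 4.99, Kcng4 4.70, Kcns3 4.54 and Kcns1 1.15 FPKM. Kcng3 (0.401 FPKM) and Kcnv2 (0.0512 FPKM, 2 to 33 counts per library) were barely measured.

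Members differed in how much they varied between rats. The coefficient of variation over 18 rats had a median of 24.2% among the 34 tested genes described. It was under 15% for 6 of them, including Kcnd2 (8.96%), Kcnd1 (9.12%) and Kcna1 (9.69%). It was over 30% for 7, including Kcnq1 (64.2%) and Kcnc2 (40.3%).

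Withdrawal was compared with control to ask which channel transcripts differed 24 h after ethanol was removed. Of all genes tested, 965 passed the test, and of the Kv genes described only Kcnh4 did. The count over all genes was unstable: it was 41 with no surrogate variables, 23 without withdrawal rat 6 and 1911 without withdrawal rat 2. The fitted log2 fold change was above 0 for 15 of them and below 0 for 19, with a median of -0.03 beside 0.00 over all genes. The median absolute log2 fold change was 0.12 for the Kv genes and 0.09 for all genes. At an unadjusted p under 0.05 there were 6 Kv genes, and 19.7% of all genes.

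Kcnh4 (gene ID 114032, chromosome 10, 88645341 to 88667447, minus strand, build Rnor_6.0) encodes a Kv12 subunit. Of its 3878 exonic bases, 24 also lay in another gene of the same strand and 84 in one of the opposite strand. Control rats had 6.61 to 8.14 CPM with a median of 7.24, ethanol rats 6.32 to 9.74 with a median of 7.73, and withdrawal rats 7.55 to 14.0 with a median of 9.55. Withdrawal rats 3 and 4 were the highest of all, at 12.6 and 14.0 CPM, and 5 of 6 withdrawal rats lay above every control rat. The mean rose 1.41-fold, from 7.26 ± 0.571 to 10.3 ± 2.51 CPM (SD, n = 6 each). The limma log2 fold change was 0.45 ± 0.12 (SE), with q = 0.0658, and the exact permutation p was 0.0065. With no surrogate variables limma gave 0.47 and q = 0.205, with 5 it gave q = 0.133, and without withdrawal rats 1 and 5 the 3-variable fit gave 0.55 and q = 0.0530. Leaving out control rat 3, 4 or 5 or withdrawal rat 3 or 6 raised q to between 0.111 and 0.219. The rats of the last index set, withdrawal 3 to 6, held the 4 highest withdrawal values, 9.34 to 14.0 CPM, while rats 1 and 2 had 7.55 and 8.41. In the same comparison 2 of 3 endothelial markers passed the test, Pecam1 and Flt1 (0.34 ± 0.07 and 0.28 ± 0.08, q = 0.0257 and 0.0629), with the list summing to 149.8 to 173 CPM in control and 159 to 227 CPM in withdrawal rats. Of 4 astrocyte markers, Gfap was higher and Aldh1l1 lower (0.54 ± 0.15 and -0.41 ± 0.10, q = 0.0775 and 0.0487), with sums of 2329 to 2616 CPM and 1895 to 3326 CPM. In withdrawal rats 1 to 6, in that order, the endothelial sum was 227, 159, 175, 174, 206 and 196 CPM. Kcnh4 in the same rats was 7.55, 8.41, 12.6, 14.0, 9.75 and 9.34 CPM. The part of these cell types in the level of Kcnh4 was not tested. Its relative Kcnh3 had a log2 fold change of 0.03 ± 0.08 and q = 0.863, but with 5 surrogate variables it was called in place of Kcnh4 (0.18, q = 0.0984).

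**Figure D2:**
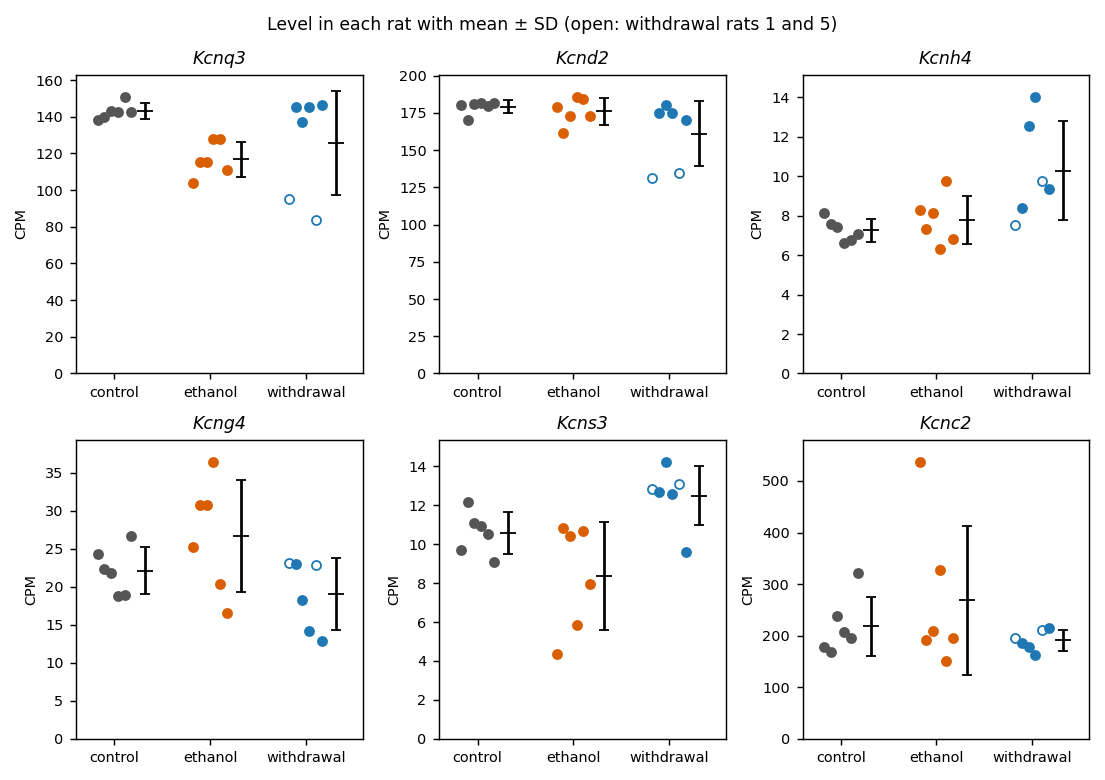
Level (CPM) of 6 Kv genes in each of the 18 rats by group, with mean ± SD (n = 6) beside the points; open circles are withdrawal rats 1 and 5. Kcnq3 lies at 104 to 128 CPM in ethanol rats against 138 to 151 in controls, the open circles fall low for Kcnq3 and Kcnd2, ethanol rat 1 has the highest Kcnc2 (537 CPM), and Kcnh4 rises above the controls in 5 of 6 withdrawal rats.

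None of the 34 separated withdrawal from control rats completely, a pattern seen in 1.06% of all genes. By the exact permutation test, 3 of them fell under an unadjusted p of 0.05, Kcnh4, Kcnd2 and Kcns3, against 12.8% of all genes. Kcnd2, the main subunit of the dendritic A-type current, was the highest Kv4 gene. It lay at 171 to 182 CPM in controls (median 181), 161 to 186 in ethanol rats (median 176) and 132 to 180.3 in withdrawal rats (median 172). Withdrawal rats 1 and 5 stood alone at 132 and 135 CPM, and the other 4 lay between 170.02 and 180.3. The log2 fold change was -0.13 ± 0.05 with q = 0.165 and an exact permutation p of 0.0325. Without those rats it was -0.05 with q = 0.656. Kcns3, a silent partner of Kv2, lay at 9.10 to 12.2 CPM in controls and 9.61 to 14.2 CPM in withdrawal rats (limma 0.17 ± 0.08, q = 0.231; exact permutation p = 0.0411).

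The ethanol diet was compared with control to ask what differed while the drug was still present. Of all genes, 88 passed, and 0 of the 34 Kv genes described did by limma. The count over all genes was 0 without control rat 4, 1 without ethanol rat 3, 258 without ethanol rat 5 and 440 with sample weights. At an unadjusted p under 0.05 there were 2 of them, Kcnq3 and Kcnd3, and 12.5% of all genes. In other fits Kcnq3 alone among the 34 was called. Their median log2 fold change was -0.03, beside 0.00 over all genes.

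Kcnq3 (gene ID 29682, chromosome 7, 106714479 to 107009639, minus strand) was the 1 gene of the 34 whose ethanol and control rats did not overlap. Control rats had 138 to 151 CPM with a median of 143, and ethanol rats 104 to 128 CPM with a median of 115. Every ethanol rat was below every control rat, which 1.32% of all genes also showed in one direction or the other. Withdrawal rats divided: rats 2, 3, 4 and 6 had 137 to 147 CPM, within or just below the control range, and rats 1 and 5 had 95.2 and 83.8 CPM. The ethanol mean was 0.817 of control, 117 ± 9.45 against 143 ± 4.38 CPM (SD, n = 6 each). The exact permutation p was 0.00216, the smallest that 6 against 6 rats can give, and 13.5% of all genes were under 0.05 by that test. Complete separation alone fixes that p, so it adds nothing to the separation. In limma the log2 fold change was -0.29 ± 0.08 (SE) with q = 0.139, which misses the threshold. It passed in 8 of 21 alternative fits, among them the fit without withdrawal rats 1 and 5 (-0.28, q = 0.0251). The log2 fold changes of the alternatives ran from -0.32 to -0.24, and it also passed without withdrawal rat 5 alone (q = 0.0949). Over all genes those 8 fits called 55 to 473 genes, and the fit without withdrawal rat 5 called 224, against 88 in the main fit.

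**Figure D3:**
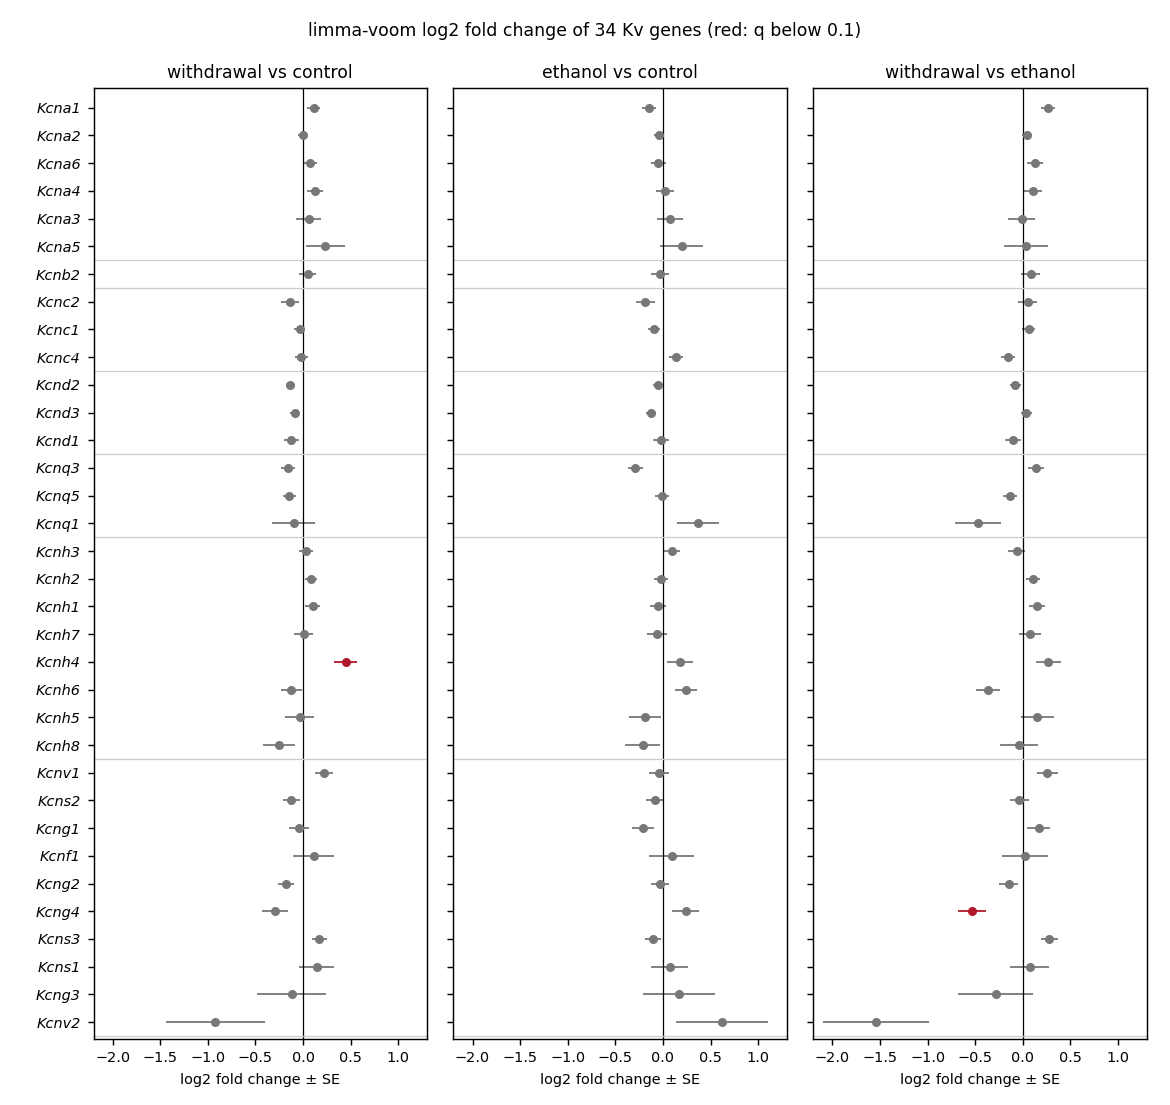
Log2 fold change ± SE from limma-voom for the 34 tested Kv genes described in the 3 comparisons, ordered by subfamily, with genes at q below 0.1 in red. Most points lie near 0, and only Kcnh4 (withdrawal against control) and Kcng4 (withdrawal against ethanol) are red.

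For withdrawal against control, Kcnq3 had a log2 fold change of -0.15 ± 0.07 with q = 0.261, and -0.02 with q = 0.918 without rats 1 and 5. For withdrawal against ethanol it was 0.14 ± 0.08 with q = 0.433, and 0.26 with q = 0.0476 without them. Both comparisons of an ethanol-fed group with control share the control rats. Another M-channel gene, Kcnq5, had log2 fold changes of -0.14 ± 0.07 for withdrawal and -0.01 ± 0.07 for ethanol against control (q = 0.249 and 0.970).

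Low Kcnq3 and Kcnd2 in withdrawal rats 1 and 5 went with low sums of granule cell markers and of CA3 markers, the latter 188 and 137 CPM against 275 to 449 CPM in the other rats. At the high end, none of the 3 highest rats for Kcnd2 and 1 of the 3 highest for Kcnq3 were among the 3 highest in granule cell markers. Both rats lay below the range of the other 16 rats for 3 of the genes described, Kcnq3, Kcnd2 and the silent subunit Kcng2 (18.0 and 16.9 CPM, others 21.02 to 50.3). They lay above it for 2, Kcnd3 (156 and 149 CPM, others 82.4 to 138) and Kcnc4 (95.2 and 82.4 CPM, others 37.2 to 69.0). All 3 granule cell markers had negative fitted log2 fold changes in withdrawal against control, and 1, Prox1, passed the test. The part of tissue makeup in these levels was not tested beyond the fits without those rats.

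Withdrawal was also compared with ethanol. Of all genes, 486 passed, and of the 34 Kv genes Kcng4. The count over all genes was 0 without ethanol rat 2 or 3 or withdrawal rat 6, 1800 without ethanol rat 5 and 1492 with 1 surrogate variable. The Kv genes' median log2 fold change was 0.04, beside 0.00 over all genes. At an unadjusted p under 0.05 there were 6 of them and 16.7% of all genes. None of the 34 separated the groups completely, against 1.22% of all genes. The exact permutation test put 4 of them under 0.05, Kcna1, Kcnh4, Kcns3 and Kcnh6, against 14.3% of all genes.

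Kcng4, a silent partner of Kv2 (gene ID 307900, chromosome 19, 52270907 to 52283317, minus strand), had 18.7 to 26.7 CPM in controls (median 22.1). Ethanol rats had 16.5 to 36.4 CPM with a median of 28.0, and withdrawal rats 12.8 to 23.1 with a median of 20.6. Ethanol rats 2, 3 and 4 were the highest, at 30.8, 30.8 and 36.4 CPM, but the other 3 ethanol rats lay among the remaining values. The withdrawal mean was 0.714 of the ethanol mean, 19.05 ± 4.68 against 26.7 ± 7.41 CPM (SD, n = 6 each). The limma log2 fold change was -0.53 ± 0.15 (SE) with q = 0.0977, at the edge of the threshold, and the exact permutation p was 0.0758. The call held in 5 of 22 alternative fits, and leaving out 1 rat at a time ended it for 13 of 18 rats, with q reaching 0.496 without withdrawal rat 6. Among rats that share a first index sequence, 6 ethanol and 2 withdrawal, a fit without surrogate variables gave -0.17 with q = 0.894, where the same fit of all rats gave -0.49 with q = 0.184.

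Kcns3 had 4.34 to 10.8 CPM in ethanol rats (median 9.18) and 9.61 to 14.2 in withdrawal rats (median 12.8). The withdrawal mean was 1.499 times the ethanol mean, with an exact permutation p of 0.00866 and a limma log2 fold change of 0.28 ± 0.09 (q = 0.130). It passed in 7 of 22 alternative fits, and with no surrogate variables it was the only one of the 34 genes called (q = 0.0762). The 2 lowest ethanol values, 4.34 and 5.83 CPM, were those of ethanol rats 1 and 4, which also had the highest thalamic marker sums. Kcnh6, an Erg relative, had 4.33 to 8.91 CPM in ethanol rats and 3.49 to 5.89 in withdrawal rats (limma -0.37 ± 0.12, q = 0.149; exact permutation p = 0.0325).

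The highest gene described in each subfamily was then followed through the 3 comparisons. Kcna1 lay at 52.7 to 60.7 CPM in controls (median 55.4), 40.7 to 57.0 in ethanol rats (median 54.0) and 54.8 to 68.1 in withdrawal rats (median 58.6). Its log2 fold change was 0.11 ± 0.07 for withdrawal against control, -0.15 ± 0.07 for ethanol against control and 0.26 ± 0.08 for withdrawal against ethanol (q = 0.370, 0.428 and 0.107; exact permutation p = 0.141, 0.245 and 0.0281). The groups overlapped, with ethanol rat 3 the lowest. For withdrawal against ethanol Kcna1 passed in 3 of 22 alternative fits (lowest q = 0.0440) and in 4 of 18 that left out 1 rat.

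Kcnb2 lay at 10.2 to 16.0 CPM in controls (median 12.1), 10.4 to 12.5 in ethanol rats (median 12.1) and 11.4 to 17.1 in withdrawal rats (median 13.4). Its log2 fold changes in the same order were 0.05 ± 0.09, -0.03 ± 0.09 and 0.08 ± 0.10 (q = 0.795, 0.925 and 0.720; exact permutation p = 0.359, 0.582 and 0.0584). The groups overlapped, with withdrawal rat 5 the highest and control rat 4 the lowest.

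Kcnh3 lay at 43.1 to 64.6 CPM in controls (median 59.2), 29.2 to 67.7 in ethanol rats (median 56.6) and 44.3 to 88.3 in withdrawal rats (median 58.4). Its log2 fold changes were 0.03 ± 0.08, 0.10 ± 0.08 and -0.07 ± 0.09 (q = 0.863, 0.675 and 0.745; exact permutation p = 0.801, 0.468 and 0.400). The ethanol mean of Kcnh3 was 0.913 of control and the withdrawal mean 1.16 times that of ethanol, opposite in sign to the fitted values, which turned to -0.173 and 0.224 with no surrogate variables. Kcnv1 lay at 21.7 to 28.7 CPM in controls (median 24.7), 12.4 to 31.7 in ethanol rats (median 21.4) and 16.8 to 41.5 in withdrawal rats (median 29.9). For both genes ethanol rat 1 was the lowest rat and withdrawal rat 4 the highest. The log2 fold changes of Kcnv1 were 0.22 ± 0.10, -0.04 ± 0.10 and 0.26 ± 0.11 (q = 0.212, 0.921 and 0.239; exact permutation p = 0.465, 0.268 and 0.165).

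The remaining comparisons of the genes already described also missed the threshold. For ethanol against control, the log2 fold change was 0.18 ± 0.14 for Kcnh4, 0.24 ± 0.14 for Kcng4 and -0.05 ± 0.05 for Kcnd2 (q = 0.631, 0.515 and 0.724). For withdrawal against ethanol it was 0.27 ± 0.13 for Kcnh4 and -0.08 ± 0.06 for Kcnd2 (q = 0.323 and 0.523). For withdrawal against control, Kcng4 had -0.30 ± 0.14 (q = 0.247).

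Some genes shared their highest or lowest rats with markers of tissue next to the hippocampus or of single cell types. Kcnc2, a Kv3 gene, was highest in ethanol rat 1 (537 CPM), ethanol rat 4 (328 CPM) and control rat 6 (322 CPM), with the other 15 rats at 149.96 to 238 CPM. Those were the same 3 rats that had the highest thalamic sums, and none of the 6 thalamic markers passed the test in any comparison. For ethanol against control all 6 had fitted log2 fold changes below 0 (median -0.29), while their ethanol means were 1.17 to 1.95 times those of control. By group, Kcnc2 lay at 168 to 322 CPM in controls (median 201), 149.96 to 537 in ethanol rats (median 202) and 163 to 215 in withdrawal rats (median 190.1), and the groups overlapped. The log2 fold change was -0.13 ± 0.09 for withdrawal against control, -0.18 ± 0.10 for ethanol against control and 0.05 ± 0.10 for withdrawal against ethanol (q = 0.442, 0.463 and 0.850; exact permutation p = 0.351, 0.574 and 0.292). The ethanol mean of Kcnc2 was 1.23 times that of control, and its withdrawal mean was 0.711 of that of ethanol, so in both comparisons the fitted sign was opposite to that of the means. With no surrogate variables the fit gave 0.193 and -0.354, and no direction can be read from either.

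Kcnq1 lay at 0.973 to 1.73 CPM in controls, 1.64 to 4.10 in ethanol rats and 0.112 to 3.61 in withdrawal rats. The ethanol mean was 1.97 times that of control, with an exact permutation p of 0.0130, while limma gave 0.37 ± 0.22 with q = 0.513. The 4 rats highest in Kcnq1 were also the 4 highest in the choroid plexus sum, and its lowest values, 0.112 and 0.322 CPM, were in withdrawal rats 4 and 5, where that sum was lowest. The same 4 rats were the highest for Kcne2, an auxiliary subunit that pairs with Kcnq1 in epithelia. Of the 4 choroid plexus markers, none passed the test in any comparison, but their ethanol means were 1.82 to 2.36 times those of control. The exact permutation p for that comparison was 0.00649 for Kcnj13, 0.0303 for Kl, 0.0736 for Folr1 and 0.0931 for Ttr. Kcnc1 and Kcnc4, Kv3 genes of fast-spiking cells, had their 3 highest rats in common with the sum of 5 inhibitory neuron markers, withdrawal rats 1 and 5 and ethanol rat 2. Of the 3 lowest rats, 1 was shared for each gene. Withdrawal rat 5 had 201 CPM of Kcnc1 and a marker sum of 806 CPM, with the other rats at 82.9 to 139 and 366 to 659 CPM. All 5 inhibitory markers had log2 fold changes above 0 in withdrawal against control and against ethanol. The fitted values of the Kv genes did not share those signs throughout. They were -0.03 ± 0.06 and 0.06 ± 0.07 for Kcnc1 and -0.02 ± 0.07 and -0.16 ± 0.08 for Kcnc4 (q = 0.790, 0.681, 0.919 and 0.307). The group means did share them. For Kcnc1 the withdrawal mean was 1.09 times that of control and 1.17 times that of ethanol, and for Kcnc4 1.12 and 1.16 times. The fitted sign was thus opposite to that of the means in all but Kcnc1 against ethanol. Kcnc4 was called lower than in ethanol without withdrawal rat 1 and without withdrawal rats 1 and 5. Over all rats, however, its mean was higher in withdrawal than in ethanol rats (61.9 against 53.5 CPM). One of the markers, Gad2, an enzyme of GABA synthesis, passed the test against ethanol (0.35 ± 0.08, q = 0.0578). The part of these tissues and cells in the levels of the Kv genes was not tested.

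**Figure D4:**
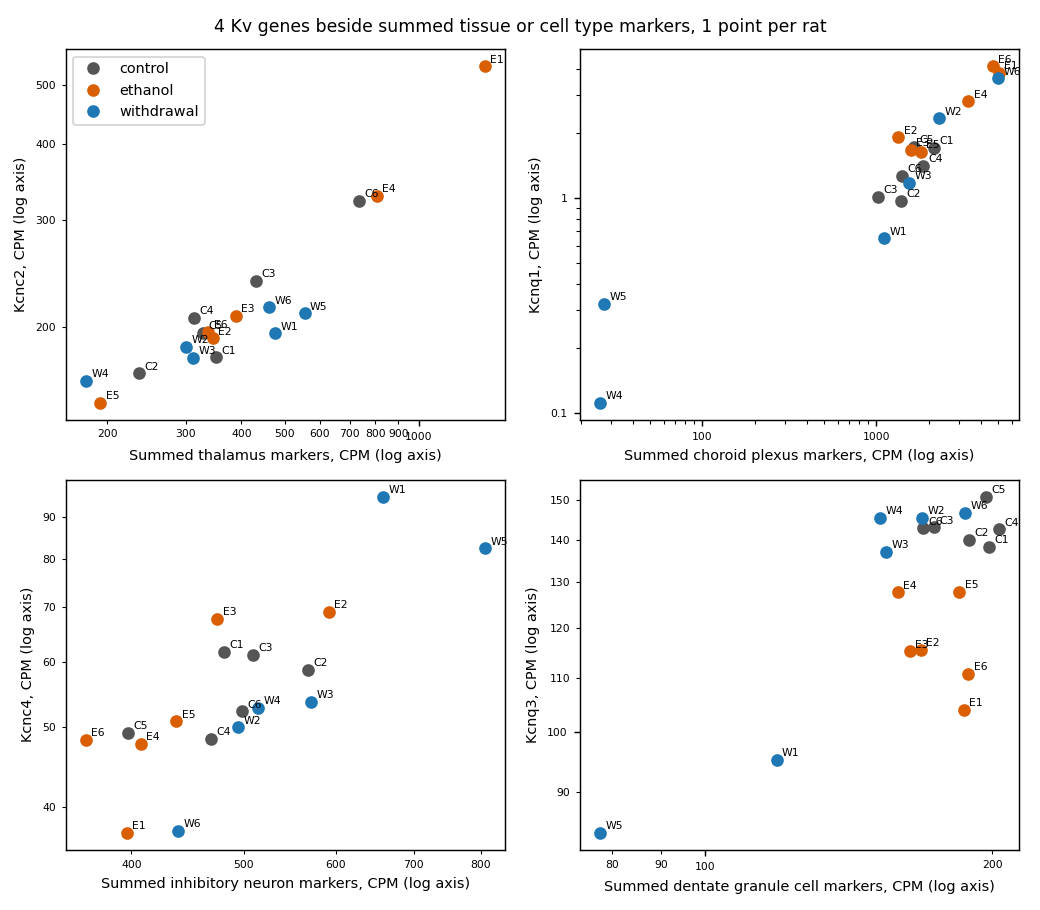
Level of 4 Kv genes (CPM, log axes) against the summed level of a marker list in each of the 18 rats, labelled C, E or W for control, ethanol and withdrawal with the rat number. Ethanol rats 1 and 4 and control rat 6 are highest for both Kcnc2 and thalamic markers, withdrawal rats 4 and 5 are lowest for both Kcnq1 and choroid plexus markers, and withdrawal rats 1 and 5 are lowest for both Kcnq3 and granule cell markers.

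Partners of Kv channels were tested as 2 further lists. Of 15 auxiliary subunit genes (the Kcnab, Kcne and Kcnip genes, Dpp6, Dpp10 and Amigo1), 13 were tested and none passed in any of the 3 comparisons, where 5.41%, 0.493% and 2.72% of all genes did for withdrawal and ethanol against control and withdrawal against ethanol. At an unadjusted p under 0.05 there were 3, 3 and 1 of the 13, and 19.7%, 12.5% and 16.7% of all genes. Kcne4, which also pairs with Kv channels, lay higher in every withdrawal rat (3.57 to 4.40 CPM) than in any ethanol rat (2.69 to 3.31 CPM), a separation of groups that 1.22% of all genes showed (limma 0.35 ± 0.13, q = 0.171). Their median log2 fold change was -0.02 for withdrawal against control, -0.01 for ethanol against control and -0.01 for withdrawal against ethanol. All 11 genes of the anchoring and clustering list, which hold Kv1 channels at axon initial segments and beside nodes or cluster Kv2 at the soma, were tested. Their median log2 fold change was -0.03, -0.01 and 0.03 in the same order. None passed against control, and 1, Adam11, passed in withdrawal against ethanol, beside the same shares of all genes; a single gene in a list this short is no result about the list. At an unadjusted p under 0.05 there were 3, 3 and 4 of the 11, beside the shares of all genes given for the auxiliary list at that threshold. Ank3, the ankyrin of axon initial segments, was lower in every ethanol rat (308 to 343 CPM) than in any control rat (347 to 393 CPM). Such a separation of those groups was seen in 1.32% of all genes. For Ank3 limma gave -0.17 ± 0.04 with q = 0.111. The exact permutation p was 0.00216, a value that the separation alone fixes. Adam11, a membrane protein that helps localise Kv1 channels at cerebellar terminals, had 420.5 to 558 CPM in ethanol rats (median 501) and 376 to 493 in withdrawal rats (median 462), with overlapping ranges. Its log2 fold change was -0.21 ± 0.05 (SE), with a limma q of 0.0486 and an exact permutation p of 0.173.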

How the data were processed

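Total RNA of 18 dorsal hippocampi was sequenced as paired ends. The authors aligned reads with STAR 2.5.2a to Rnor_6.0 and counted them with featureCounts 1.5.0, per the labels' processing notes and the file headers, and deposited raw gene counts for each rat. Whether counting used strand is not given in the sources used here. Gene IDs were named from the RefSeq gene table, in which 29322 of 38445 had a symbol. TMM factors and CPM came from edgeR 4.0.16. FPKM was CPM divided by the listed exonic length. The 17853 genes above 0.5 CPM in at least 1 rat were fitted with limma 3.58.1 (voom) in 1 model of all rats, with 3 surrogate variables from sva 3.50.0. The number used by the authors is not stated. Adjustment was Benjamini-Hochberg over all genes, with q below 0.1 called. The exact two-sided permutation test ran over the 924 splits of 6 against 6 rats on log2 CPM (prior count 2). Each rat is a separate animal. Libraries held 30873228 to 42679748 counts. Counting error is part of the spread between rats, and was largest for Kcna7, Kcnv2, Kcng3, Kcna5 and Kcnq1, which had the fewest counts of the members described. The fit and the permutation test were tested on simulated data. No 2 libraries of the same group were copies of each other, and pairs from different groups were not compared.

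Members and lists were chosen with earlier results of these data known. Of the 39 members, 4 are not reported here and are left out of every count and median over the Kv genes; each of the other 35 is named with its level. Full statistics went to members with q below 0.1, with groups that did not overlap, or highest per length of those described in their subfamily. Members with an exact permutation p under 0.05 or set beside marker sums, and Kcne4, Ank3 and the marker genes given with values, were added after their values were seen. The closing section gives the alternatives: other numbers of surrogate variables, edgeR quasi-likelihood and DESeq2 1.42.0 tests, other scaling, filters and samples.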

Additional observations from a re-analysis of the deposited data

Results flagged for a closer look

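Of 102 groups of 6 rats (34 genes in 3 groups), 7 (6.86%) held a rat set apart by Dixon's test, which chance alone does in about 1 in 20 groups. Withdrawal rat 5 was high for Kcna2, at 499.6 CPM with the nearest rat at 370 CPM. The same rat had the lowest pyramidal and granule cell marker sums and the highest inhibitory sum, and the part of these in the levels was not tested. Ethanol rat 5 was high for Kcna4 (39.0 CPM, nearest 32.02), withdrawal rat 4 for Kcns1 (8.09 CPM, nearest 5.05) and control rat 6 for Kcnh2 (47.5 CPM, nearest 36.9). Control rat 2 was low for Kcnd2 (171 CPM, with the nearest rat at 180 CPM), ethanol rat 3 for Kcna1 (40.7 CPM, nearest 52.3) and withdrawal rat 6 for Kcns3 (9.61 CPM, nearest 12.6).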

How the results depend on the processing

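Withdrawal against control gave 1 called Kv gene, Kcnh4. The count was 0 with 0 or 1 surrogate variables, with edgeR at 0 surrogate variables, at q below 0.05, with only the groups compared and no surrogate variables, with the replicate block at 0 surrogate variables and without withdrawal rats 1 and 5 at 0 surrogate variables, and 2 without ethanol rats 1 and 4 and control rat 6. Over all genes the same fits called 41, 112, 33, 370, 0, 0, 0 and 640, in that order, against 965. In 13 of 21 alternatives the count was the same, but with 5 surrogate variables the gene called was Kcnh3, not Kcnh4. Kcnh4 itself was called in 13 of 21. Leaving out each rat gave 0 to 3. Ethanol against control, with 0 called, gave 1 (Kcnq3) with 1, 4 or 5 surrogate variables, DESeq2 at 3, sample weights, only the groups compared, and both fits without withdrawal rats 1 and 5. Over all genes those fits called 258, 221, 322, 473, 440, 55, 404 and 192, in that order, against 88, the last 2 at 3 and 0 surrogate variables. The Kv count was 0 to 1 leaving out each rat. Withdrawal against ethanol, with 1 called (Kcng4), gave 1 with 0 surrogate variables, but there it was Kcns3. It gave 5 with 1 surrogate variable, 4 with DESeq2 at 3, and 3 with 4 or 5 surrogate variables, DESeq2 at 0 and sample weights, where all genes gave 1492, 1176, 896, 871, 1443 and 1073 calls against 486. The genes gained were Kcns3 (7 of 22 alternatives), Kcna1, Kcnh6, Kcnv1 and Kcnq3 (3 each), and Kcnh1, Kcnh4 and Kcnc4 (1 each). It gave 2 in both fits without withdrawal rats 1 and 5. It gave 0 with 2 surrogate variables, edgeR at 0 or 3, upper-quartile factors, either other filter, q below 0.05, only the groups compared, the replicate block at 0 or 3, the rats of one index set, and without ethanol rats 1 and 4 and control rat 6. Leaving out each rat gave 0 to 4. Over all genes, the 965 calls for withdrawal against control became 428 to 615 without any 1 control rat, 555, 630 and 23 without withdrawal rats 1, 3 and 6, and 1911 without rat 2. The 88 for ethanol against control became 0 to 21 without control rats 1 to 4 or 6, 41, 1 and 8 without ethanol rats 2, 3 and 6, 31 and 28 without withdrawal rats 3 and 6, and 258, 187 and 224 without ethanol rat 5 and withdrawal rats 1 and 5. The 486 for withdrawal against ethanol became 0 without ethanol rat 2 or 3 or withdrawal rat 6, 303 without ethanol rat 6, 1800 without ethanol rat 5 and 1009 without withdrawal rat 2. The fits of only the groups compared and of one index set had no surrogate variables, so they changed both choices. The cause was not tested. The fits without named rats were chosen after seeing the data.

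Replicate numbers did not pair the rats: deviations of same-numbered rats correlated at -0.325 to 0.383, over 0.1 in 4 of 18 pairs. With the replicate block and 3 surrogate variables, 1, 0 and 0 genes were called, in the order above. Among alternatives for single genes, no called gene changed direction. Changes of sign occurred for genes that did not pass. For ethanol against control, Kcnc2 (-0.18) turned to 0.193 with 0 and 0.200 with 1 surrogate variable, 0.301 with edgeR and 0.298 with DESeq2 at 0, 0.192 with only the groups compared, 0.191 with the block and 0.198 without withdrawal rats 1 and 5, the last 3 also at 0 surrogate variables, and spanned -0.255 to -0.138 leaving out each rat. Kcnh3 (0.10) turned in the same settings to -0.173, -0.182, -0.132, -0.133, -0.175, -0.164 and -0.169, and spanned 0.0489 to 0.157. Kcnv1 (-0.04) turned to 0.0300 without ethanol rats 1 and 4 and control rat 6 and spanned -0.104 to 0.0758, and Kcnb2 (-0.03) spanned -0.0762 to 0.0341. For withdrawal against ethanol, Kcnc2 (0.05) turned in the same settings to -0.354, -0.417, -0.491, -0.490, -0.351, -0.351 and -0.405, and to -0.351 in one index set, and spanned -0.0256 to 0.0999. Kcnh3 (-0.07) turned to 0.224, 0.302, 0.214, 0.213, 0.226, 0.218 and 0.410, to 0.134 in one index set, to 0.0294 with 5 surrogate variables and to 0.0375 without withdrawal rats 1 and 5 at 3, and spanned -0.124 to -0.0222. For withdrawal against control, Kcnh3 (0.03) turned to -0.00269 with 2 surrogate variables and -0.000762 without ethanol rats 1 and 4 and control rat 6, and spanned -0.0233 to 0.0903. Kcnq3 turned to 0.00674 without withdrawal rats 1 and 5 at 0 surrogate variables and spanned -0.198 to -0.110. In CPM without length, 4 of 7 subfamilies kept the same highest member among those described, but Kv2, with 1 described member, could not change.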
